A study of Homo sapiens with 10 samples.

Results

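The genes described here are 9 members of the p53 pathway and the machinery that stops the cell cycle: CDKN1A, CDKN1B, CDKN2A, CDKN2B, RB1, MDM2, GADD45A, BAX and TP53I3. They were chosen by name, and each was read from the single-symbol probe with the highest mean on the array. All 9 of 9 had such a probe, among 14232 genes that did. RNA of DLD-1 cells, an established line from a human colorectal cancer, was read on 10 exon arrays that give 1 value per gene-level probe, in log2 units. The first tested group was clone 2, 1 single cell clone with short hairpin RNA (shRNA) V2LHS_62675 against LMNB1, on 3 arrays that were averaged. The next were clones 8, 9 and 12 with shRNA V2LHS_62673 against the same gene, 1 array each. Wild type cells with no vector, 1 array, and 3 clones with an empty vector, 1 array each, served as negative controls. All cultures but the wild type were kept in puromycin, which is thus shared by the hairpin and empty vector clones. Titles give the V2LHS_62675 samples another clone number, 12, and call them biological replicates. Their descriptions and the study's design call them repeats of clone 2, which was followed.

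In the pathway, damage or stress stabilises the transcription factor p53, which switches on brakes on the cycle, death genes and its own inhibitor MDM2. Inhibitors of cyclin-dependent kinases keep the RB1 protein unphosphorylated, and RB1 then holds E2F factors and the genes of S phase and mitosis silent. Loss of lamin B1 is a known mark of senescent cells, in which CDKN1A and CDKN2A are brakes often found raised.

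The start regions of 2 p53 targets are shown because they differ in whether a match to the p53 binding consensus lies in the window. They are from RefSeq on GRCh38.p14 and run 5′ to 3′ on the + strand, from 250 bases before to 50 after a transcript start. The CDKN1A window is chr6:36678464-36678763, and capitals mark the 4 matches to the GC box GGGCGG on either strand. The MDM2 window is chr12:68808767-68809066, at the inner promoter of the gene, and capitals mark the 1 match to the p53 binding consensus, a pair of decamers with no spacer and at most 2 mismatches, the same on both strands.
CDKN1A: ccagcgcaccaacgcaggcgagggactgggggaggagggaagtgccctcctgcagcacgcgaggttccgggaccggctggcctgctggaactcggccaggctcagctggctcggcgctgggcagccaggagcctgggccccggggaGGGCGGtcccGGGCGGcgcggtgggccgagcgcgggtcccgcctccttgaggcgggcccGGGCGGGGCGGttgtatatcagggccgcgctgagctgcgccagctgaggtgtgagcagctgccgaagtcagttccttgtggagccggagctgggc
MDM2: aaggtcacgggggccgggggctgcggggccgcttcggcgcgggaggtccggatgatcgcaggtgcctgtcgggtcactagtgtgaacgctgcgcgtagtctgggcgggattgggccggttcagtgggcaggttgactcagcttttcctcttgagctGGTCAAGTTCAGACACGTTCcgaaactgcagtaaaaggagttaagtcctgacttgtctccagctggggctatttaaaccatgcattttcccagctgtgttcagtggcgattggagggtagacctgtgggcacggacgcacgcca
A p53 match was found in 0.649% of 35116 windows of 300 bases over all genes, and in no window of the other members. Windows were matched for 8 of the 9 members. The GC box was found in 45.0% of all windows. A match is only a run of letters, and its absence from the CDKN1A window says nothing of p53 elements outside it. Stretches with more than 2 mismatches to the p53 consensus are not marked in either window, so the count is not one of p53 elements.

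The signal of the targeted gene was lower in every hairpin clone than in every control. The probe annotated to LMNB1, which it shares with PCIF1, stood at 7.72, 7.72 and 7.56 on the arrays of clone 2 and at 7.79, 7.70 and 7.45 in clones 8, 9 and 12, against 9.52 in wild type cells and 8.93, 9.17 and 8.84 in the empty vector clones. Clone 8 was as low as the other hairpin clones. Over the 4 hairpin clones against the 4 controls the difference was -1.46 (SE 0.17), with an adjusted p of 0.0603 in limma over 11199 features, just short of the threshold of 0.05. Without clone 8 it was -1.51 (SE 0.16), with an adjusted p of 0.0563 in limma. In the fit of the 4 groups without clone 8, clones 9 and 12 differed from the empty vector clones by -1.40 (SE 0.12). The adjusted p was 0.000914 in limma, which passed the threshold. Clone 2 differed from the empty vector clones by -1.31.

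The array of clone 8 stood apart, which bears on every result that includes it. It correlated with the other arrays at 0.915 to 0.926, and they with each other at 0.986 to 0.994. Against the mean of the empty vector clones it was at least 0.5 higher for 31.1% of 11198 genes and at least 0.5 lower for 24.2%. Those shares were 2.66% and 3.4% in clone 2, 0.956% and 1.88% in clone 9, and 1.3% and 2.39% in clone 12. The shift in clone 8 followed the level of a gene: its median was 0.57 for genes under 7 log2 units in the empty vector clones, 0.23 from 7 to 9, and -0.63 at 9 or more. Differences that include it are therefore also given without it, except for CDKN2A and single genes of the pathway lists. DLD-1 is an epithelial line. Its 12 epithelial markers averaged 9.55 to 9.78 in clone 2, 9.78 in clone 8, 9.35 to 9.52 in clones 9 and 12, 9.70 in wild type cells and 9.52 to 9.77 in the empty vector clones. The 10 mesenchymal markers with a probe averaged 6.10 in clone 8 and 5.55 to 5.74 elsewhere, and the 10 leukocyte markers 6.42 in clone 8 and 5.94 to 6.13 elsewhere. The 8 endothelial markers averaged 6.83 in clone 8 and 6.15 to 6.32 elsewhere. The part of these markers in the results was not tested.

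None of the members differed between hairpin clones and controls beyond the spread between clones. Genes were kept for testing where the mean was at or above the 25th percentile of all probes, a level of 5.96, which left 11198 genes and 8 of the 9 members. CDKN2A, at 5.72 to 5.99 on every array but that of clone 8, fell below it and was tested only without the filter. With 4 hairpin clones against 4 controls, 0 of 8 members passed limma's test, and 0.0% of all genes did. At an unadjusted p under 0.05 the counts were 0 members and 255 genes, or 2.28%. In none of the 9 did the 4 hairpin clones lie wholly above or below the 4 controls, which 3.13% of kept genes did. The median difference of the 8 members was 0.09, beside 0.04 over all genes tested, and 6 of them were on the higher side, where 56.0% of all genes were. Without clone 8 the median was -0.05, beside 0.00498 over all genes, and 3 of 8 were on the higher side, where 51.9% of all genes were. Again 0 members and 0.0% of genes passed in limma, and 0 members and 6.46% of genes had an unadjusted p under 0.05. A bulk level does not tell a change in RNA per cell from a change in the share of cells that express a gene.

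**Figure D1:**
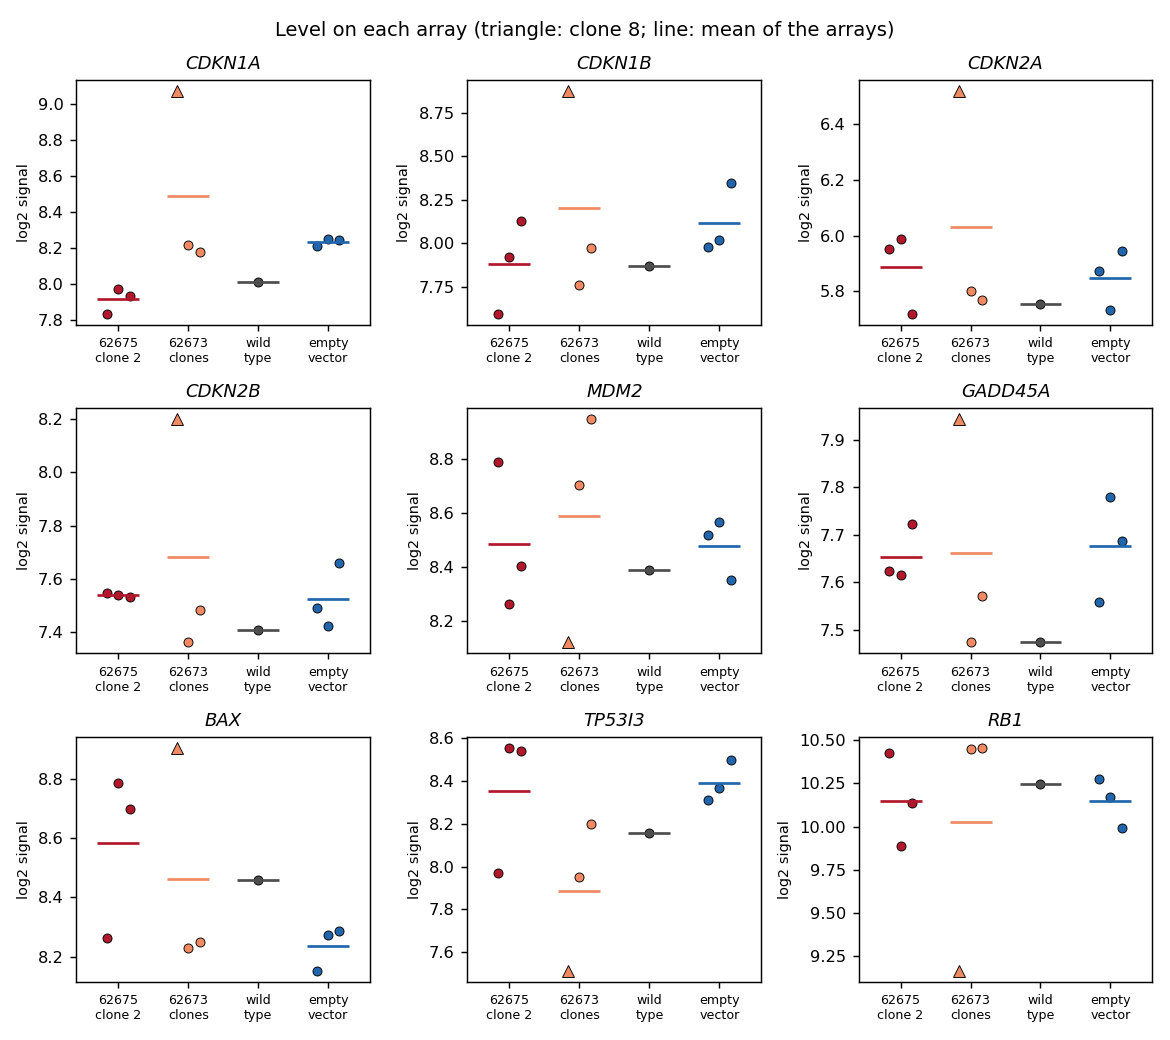
Levels of the 9 members on the 10 arrays in log2 signal on the vertical axis, by group, where each point is 1 array, the triangle is clone 8 and each line is the mean of the group's arrays. Clone 8 is the highest array for CDKN1A, CDKN1B, CDKN2A, CDKN2B, GADD45A and BAX and the lowest for MDM2, TP53I3 and RB1.

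CDKN1A encodes p21, the kinase inhibitor through which p53 halts cells before S phase. Its level was 7.83, 7.97 and 7.93 on the arrays of clone 2 and 9.07, 8.22 and 8.18 in clones 8, 9 and 12, against 8.01 in wild type cells and 8.21, 8.25 and 8.24 in the empty vector clones. Clone 8 was high, clones 9 and 12 lay at or just below the empty vector clones, and all 3 arrays of clone 2, like the wild type array, lay below them. Group means ran from 8.49 ± 0.51 in V2LHS_62673 (SD, n = 3) over 8.23 ± 0.02 in the empty vector clones (SD, n = 3) and 8.01 in wild type cells to 7.91 in clone 2. The V2LHS_62673 and empty vector means do not differ beyond the spread of the clones, and the SD over the arrays of clone 2 was 0.07. The hairpin clones averaged 8.35 ± 0.50 and the controls 8.18 ± 0.11 (SD, n = 4 each), a difference of 0.17 (SE 0.23, 95% interval -0.34 to 0.67, adjusted p = 0.769 in limma). Without clone 8 the difference was -0.08 (SE 0.10, 95% interval -0.30 to 0.15). In clone 8 the excess over the empty vector mean was 0.84, and 8.76% of kept genes lay that far above or farther in the same array.

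CDKN1B encodes p27, the inhibitor of cyclin E and A kinases that marks quiescent cells. Here the level was 7.59, 7.92 and 8.13 in clone 2 and 8.88, 7.76 and 7.97 in clones 8, 9 and 12, against 7.87 in wild type cells and 7.98, 8.02 and 8.35 in the empty vector clones. Clone 8 was again the highest. Clone 2, taken as the mean of its arrays, clones 9 and 12 and wild type cells had values below the lowest empty vector clone. The share of all genes with this order was not counted. The 3 arrays of clone 2 spread over more than the 3 empty vector clones did, with SDs of 0.27 and 0.20. Hairpin clones averaged 8.12 ± 0.51 and controls 8.05 ± 0.21 (SD, n = 4 each), with a difference of 0.07 (SE 0.24) and, without clone 8, of -0.18 (SE 0.12, adjusted p = 0.816 in limma).

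CDKN2A, which encodes p16 and, from another first exon, p14ARF, was below the filter on low levels. It stood at 5.95, 5.99 and 5.72 in clone 2 and at 6.52, 5.80 and 5.77 in clones 8, 9 and 12, against 5.75 in wild type cells and 5.87, 5.73 and 5.94 in the empty vector clones. Of the hairpin clones, with clone 2 as the mean of its arrays, none besides clone 8 left the range of the controls. The probe reads both products of the gene together. Tested without the filter, the difference between hairpin clones and controls was 0.17 (SE 0.17, adjusted p = 0.696 in limma).

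CDKN2B, the neighbour of CDKN2A, encodes p15, the inhibitor of CDK4 and CDK6 that answers TGF-beta. The second exons of both genes are closely alike, so their probes may share signal. CDKN2B was at 7.55, 7.54 and 7.53 in clone 2 and at 8.20, 7.36 and 7.48 in clones 8, 9 and 12, against 7.41 in wild type cells and 7.49, 7.42 and 7.66 in the empty vector clones. The arrays of clone 2 had an SD of 0.0081 and lay inside the range of the empty vector clones. The difference between hairpin clones and controls was 0.15 (SE 0.18), and -0.03 (SE 0.09, 95% interval -0.23 to 0.16) without clone 8. Clone 8 stood 0.67 above the empty vector mean for both CDKN2A and CDKN2B, a distance that 18.4% of kept genes reached on that side.

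RB1, the gene of the retinoblastoma protein on which these inhibitors act, was 10.43, 9.89 and 10.13 in clone 2 and 9.17, 10.45 and 10.46 in clones 8, 9 and 12, against 10.25 in wild type cells and 10.27, 10.17 and 9.99 in the empty vector clones. Clones 9 and 12 lay above every control and clone 8 far below, while clone 2 spanned the range of the empty vector clones. How many of all genes had such an order was not counted. Hairpin clones and controls averaged 10.06 ± 0.61 and 10.17 ± 0.13 (SD, n = 4 each). The difference was -0.12 (SE 0.26) with all clones and 0.18 (SE 0.11, adjusted p = 0.812 in limma) without clone 8, so its sign turns with clone 8.

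MDM2 encodes the ubiquitin ligase that degrades p53 and is itself a p53 target. Levels were 8.79, 8.26 and 8.40 in clone 2 and 8.12, 8.70 and 8.95 in clones 8, 9 and 12, against 8.39 in wild type cells and 8.52, 8.57 and 8.35 in the empty vector clones. Clones 9 and 12 lay above every control, clone 8 below them all, and the arrays of clone 2 on both sides of the empty vector range. Clone 12 was 0.47 above the empty vector mean, a distance that 1.66% of kept genes reached on that side, and clone 9 was 0.22 above, which 9.92% reached. The difference between hairpin clones and controls was 0.11 (SE 0.18), and 0.25 (SE 0.11, 95% interval -0.0037 to 0.51, adjusted p = 0.775 in limma) without clone 8. MDM2 was the only member that, like RB1, lay lower in clone 8 and higher in clones 9 and 12 than in all 4 controls. The share of all genes with that order was not counted, so nothing particular to these members is read from it.

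GADD45A, a stress sensor that binds PCNA and p21 and slows the cycle, had the smallest SD of the members over the 4 hairpin clones, though not without clone 8. It was 7.62, 7.62 and 7.72 in clone 2 and 7.94, 7.47 and 7.57 in clones 8, 9 and 12, against 7.47 in wild type cells and 7.56, 7.78 and 7.69 in the empty vector clones. Clone 8 was the highest and wild type cells and clone 9 the lowest. The means were 7.66 ± 0.20 in hairpin clones and 7.63 ± 0.14 in controls (SD, n = 4 each), and the difference was 0.04 (SE 0.14). Without clone 8 it was -0.06 (95% interval -0.27 to 0.15).

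BAX, the pore-forming protein of mitochondrial cell death, was 8.26, 8.78 and 8.70 in clone 2 and 8.90, 8.23 and 8.25 in clones 8, 9 and 12, against 8.46 in wild type cells and 8.15, 8.27 and 8.29 in the empty vector clones. Arrays 2 and 3 of clone 2, clone 8 and wild type cells were high, whereas clones 9, 12 and array 1 of clone 2 lay among the empty vector clones. The difference between hairpin clones and controls was 0.20 (SE 0.17), and 0.06 (SE 0.11) without clone 8.

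TP53I3, the quinone oxidoreductase also called PIG3, which p53 induces in cells that go on to die, was the member with the smallest p. It was 7.97, 8.56 and 8.54 in clone 2 and 7.51, 7.95 and 8.20 in clones 8, 9 and 12, against 8.16 in wild type cells and 8.31, 8.37 and 8.50 in the empty vector clones. All 3 V2LHS_62673 clones lay below the lowest empty vector clone, as 7.94% of kept genes did, but clone 12 was above the wild type cells. Hairpin clones averaged 8.00 ± 0.37 and controls 8.33 ± 0.14 (SD, n = 4 each), a difference of -0.33 (SE 0.18, 95% interval -0.74 to 0.08) with an unadjusted p of 0.104 and an adjusted p of 0.761 in limma. It was -0.17 (SE 0.12) without clone 8. In each of CDKN1B, BAX, TP53I3, MDM2 and RB1, array 1 of clone 2 stood 0.42 to 0.58 from the mean of arrays 2 and 3.

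**Figure D2:**
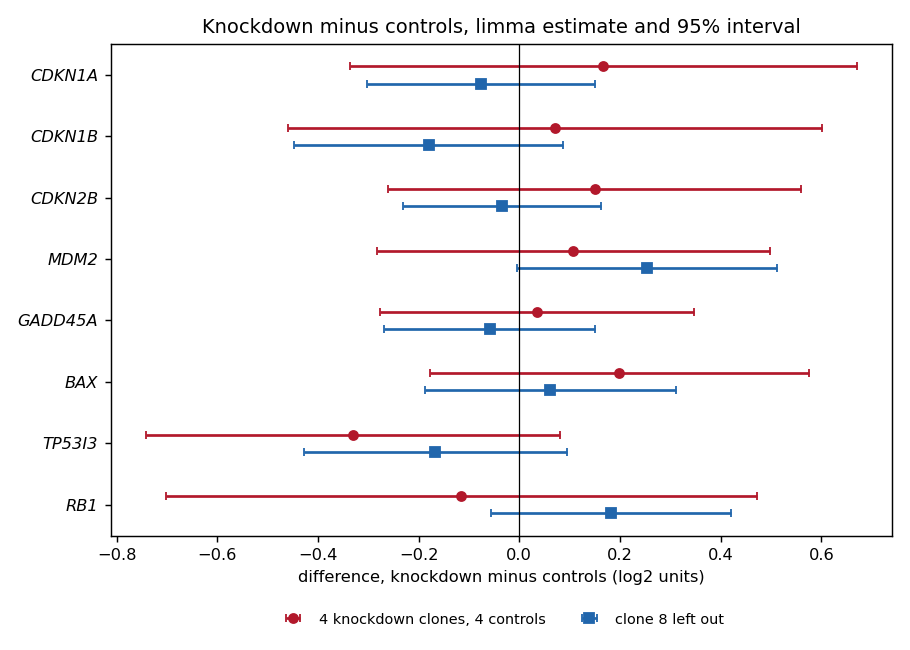
Difference of hairpin clones minus controls in log2 units (horizontal axis) for the 8 members kept by the filter, as limma's estimate with its 95% interval, from 4 against 4 clones (circles) and with clone 8 left out (squares). Every interval spans 0, and leaving out clone 8 narrows each interval and turns the sign of CDKN1A, CDKN1B, CDKN2B, GADD45A and RB1.

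In clone 8 all the members departed from the empty vector mean by distances that many other genes on that array also reached. The shares given pool genes of all levels and do not compare a member with genes of like level. The median shift on that array was 0.23 from 7 to 9 log2 units and -0.63 at 9 or more. RB1 stood at -0.98, and 12.1% of kept genes lay that low or lower. TP53I3 stood at -0.88 (14.3%) and MDM2 at -0.36 (29.0%). On the other side BAX was 0.67 higher (18.8%), CDKN1B 0.76 higher (12.5%) and GADD45A 0.27 higher (45.8%). After quantile normalization, which gives all arrays the same distribution of values, clone 8 stood 1.05 above the empty vector mean for CDKN1A, 0.92 for CDKN1B, 0.84 for BAX, 0.58 for CDKN2B, 0.24 for CDKN2A and 0.12 for GADD45A, and -0.45 for MDM2, -0.75 for RB1 and -1.13 for TP53I3.

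**Figure D3:**
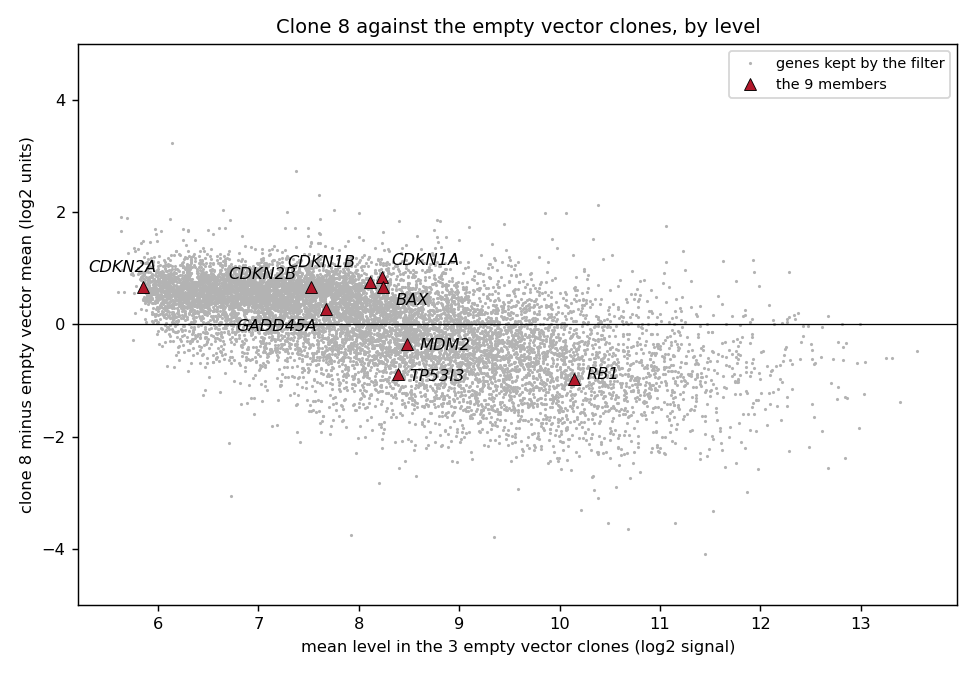
Clone 8 minus the mean of the 3 empty vector clones in log2 units (vertical axis) against that mean in log2 signal (horizontal axis) for 11198 kept genes (grey) and the 9 members (triangles, CDKN2A included though below the filter). The cloud slopes from above 0 at low levels to below 0 at high ones.

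Within single constructs no member passed the adjusted threshold, though some unadjusted intervals lay to 1 side of 0. In the V2LHS_62673 clones against the empty vector clones 0 of 8 members and 0.0% of genes passed in limma, and 1 member, TP53I3, and 358 genes, or 3.2%, had an unadjusted p under 0.05. TP53I3 stood at -0.51 (SE 0.20, 95% interval -0.98 to -0.03, adjusted p = 0.742), at 7.89 ± 0.35 in V2LHS_62673 and 8.39 ± 0.10 in empty vector clones (SD, n = 3 each). With clones 9 and 12 alone, 0.982% of genes passed and again 0 members, though 3 had an unadjusted p under 0.05, where 15.9% of all genes did. Those 3 were MDM2 at 0.34 (SE 0.11, adjusted p = 0.158), RB1 at 0.31 (SE 0.10, adjusted p = 0.185) and TP53I3 at -0.32 (SE 0.11, adjusted p = 0.182). CDKN1A then differed by -0.04 (SE 0.09, 95% interval -0.23 to 0.16). In the same clones all 11 kept epithelial markers were on the lower side, with a median of -0.21 beside -0.0006 over all genes. None of these markers passed the threshold, and 4 had an unadjusted p under 0.05 in limma, where 15.9% of all genes did. Their part in the differences of MDM2, RB1 and TP53I3 was not tested.

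Clone 2 of V2LHS_62675 enters as 1 clone and is assumed to vary as the others do. Against the same empty vector clones 0 of 8 members and 0.0% of genes passed in limma, and 0 members and 295 genes, or 2.63%, had an unadjusted p under 0.05. Without clone 8, 3.73% of genes passed and still 0 members, and 2 members had an unadjusted p under 0.05, where 18.2% of all genes did. CDKN1A was -0.32 (SE 0.11, 95% interval -0.57 to -0.07, adjusted p = 0.146) and BAX 0.34 (SE 0.12, 95% interval 0.09 to 0.60, adjusted p = 0.136). All 3 arrays of clone 2 lay below all 3 empty vector clones for CDKN1A, as they did for 13.6% of kept genes. Among the other members kept by the filter the differences ran from -0.23 for CDKN1B to 0.02 for CDKN2B. CDKN2A, below the filter, stood at 0.04.

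Wild type cells carry neither hairpin nor vector, and the same empty vector arrays serve as their comparison. Being 1 array, they are assumed in limma to vary as the other groups do. Their CDKN1A was -0.22 from the empty vector mean (SE 0.11 without clone 8), CDKN1B -0.25, TP53I3 -0.23, GADD45A -0.20, CDKN2B -0.12, MDM2 -0.09, RB1 0.10 and BAX 0.22. None of the 8 passed in limma, with or without clone 8, where 0.0% and 3.57% of genes did, and none had an unadjusted p under 0.05, where 2.59% and 19.7% of genes did. The comparisons of clone 2, of V2LHS_62673 and of wild type cells all use these empty vector arrays.

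The constructs were also compared with each other, clone 2 minus the V2LHS_62673 clones. Against clones 9 and 12 alone TP53I3 differed by 0.28. With clone 8 included the values were as follows. CDKN1A differed by -0.58 (SE 0.36, 95% interval -1.42 to 0.26) and TP53I3 by 0.47 (SE 0.29, 95% interval -0.20 to 1.14), and 0 of 8 members and 0.0% of genes passed in limma, with 0 members and 249 genes, or 2.22%, at an unadjusted p under 0.05. Against clones 9 and 12 alone CDKN1A differed by -0.29 (SE 0.12, adjusted p = 0.279), BAX by 0.34 (SE 0.12, adjusted p = 0.201) and MDM2 by -0.34 (SE 0.15, adjusted p = 0.302). These 3 had an unadjusted p under 0.05, as 15.2% of all genes did, and none passed, where 2.15% of genes did.

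Other genes of the pathway were read from lists that also hold the members. With all clones none of their 97 tested genes besides the members passed in any of the 5 comparisons in limma. At an unadjusted p under 0.05 there were 1 for hairpin clones against controls, where 2.28% of all genes were, 4 for V2LHS_62673 (3.2%), 8 for clone 2 (2.63%), 9 for wild type cells (2.59%) and 6 for clone 2 against V2LHS_62673 (2.22%). For hairpin clones against controls, 56.0% of all genes lay on the higher side with all clones and 51.9% without clone 8. Among the inhibitors of cyclin-dependent kinases, all 5 of 5 tested lay on the higher side in hairpin clones with all clones (median 0.17) and 1 of 5 without clone 8 (median -0.03). CDKN2D, which encodes p19, stood at 0.27 (SE 0.16) and CDKN1C, which encodes p57, at 0.17 (SE 0.18). Of 14 genes for p53 and its regulators 6 were higher (median -0.06), and 5 without clone 8 (median -0.01), including the p53-phosphorylating kinase TP53RK at 0.30 (SE 0.13, unadjusted p = 0.0388 in limma), while the acetyltransferase KAT5 stood at -0.34 (SE 0.18) and the damage kinase ATR at -0.33 (SE 0.27). For the p53 targets of arrest the count was 9 of 13 higher (median 0.05) but 5 of 13 without clone 8 (median -0.03), with PRDM1 at 0.33 and the cyclin CCNG1 at -0.45. Targets that act in cell death were higher in 12 of 17 (median 0.05), and in 10 without clone 8 (median 0.06), with the survival protein BCL2L1 at 0.35 and the apoptosome scaffold APAF1 at 0.19. Targets of metabolism and repair were higher in 7 of 15 (median -0.01), and in 6 without clone 8 (median -0.02), with RRM2B, a subunit of the p53-induced ribonucleotide reductase, at -0.35 and the repair factor XPC at 0.26. The RB and E2F list was higher in 13 of 19 (median 0.06), and in 14 without clone 8 (median 0.10), with E2F5 at -0.28 and E2F6 at 0.32. The single genes are given with all clones. The median over all genes tested was 0.04, and 0.00498 without clone 8.

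Genes that arrested cells hold down, such as S phase and mitotic genes, were read against the same empty vector mean in each clone. In clone 2 all 23 tested lay above the empty vector mean, from 0.01 for CDK1 to 0.79 for BIRC5, with a median of 0.27 beside 0.02 over all genes, of which 56.4% lay above. Clone 9 had 17 of 23 above, with a median of 0.04, where 50.5% of all genes lay above. Clone 12 had 18 above, with a median of 0.12 (48.9% of all genes). Wild type cells had 21 above, with a median of 0.35 (48.2% of all genes). In clone 8, where 58.1% of all genes lay above, 8 of 23 did and the median was -0.57, from -1.93 for CDK1, the mitotic kinase, to 0.87 for the replication helicase subunit MCM3. Genes of 9 log2 units or more as a whole had a median of -0.63 in that clone.

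**Figure D4:**
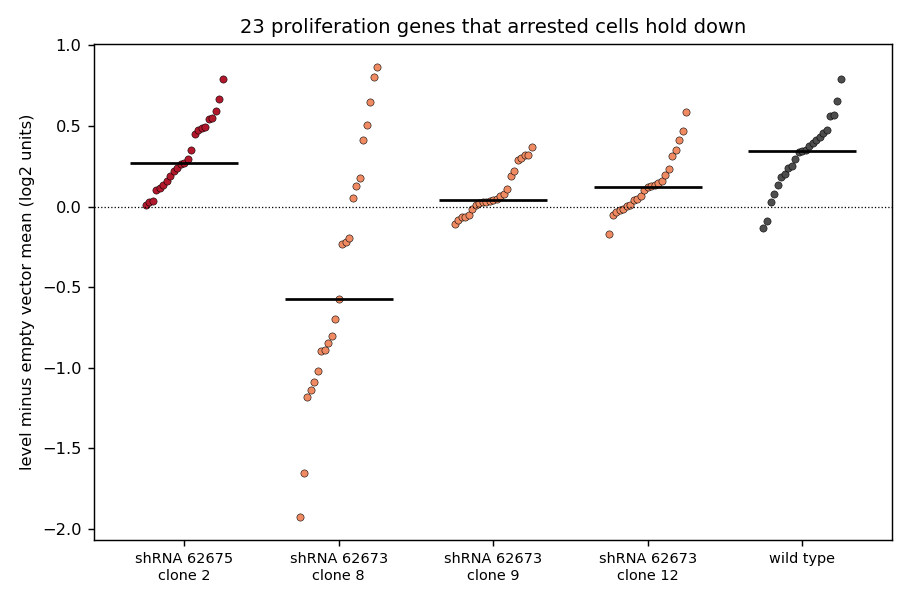
Level minus the mean of the 3 empty vector clones in log2 units (vertical axis) for 23 proliferation genes in clone 2, clones 8, 9 and 12 and wild type cells, where each point is 1 gene and each bar a median. All 23 points lie above 0 in clone 2 and 21 do in wild type cells, while clone 8 spreads from -1.93 to 0.87. Clone 2 is the mean of its 3 arrays.

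Single genes of these lists passed in limma when clone 8 was left out, and with all clones none did. In clone 2 against the empty vector clones 7 of the 97 rose and 1 fell, which is 8.25% where 3.73% of all genes passed. CCNG2, an atypical cyclin tied to arrest, fell by 1.13 (SE 0.15, adjusted p = 0.00536). Its level was 6.43, 6.61 and 6.61 in clone 2, 8.04, 7.21 and 7.12 in clones 8, 9 and 12 and 6.63 in wild type cells, against 7.53, 7.88 and 7.63 in the empty vector clones. The survival and mitotic protein BIRC5 rose by 0.79, the mitotic kinase PLK1 by 0.67, the CDK-activating phosphatase CDC25A by 0.60 and the helicase subunit MCM2 by 0.59. So did the mitotic transcription factor FOXM1 by 0.55, MCM5 by 0.49 and GTSE1, which restrains p53 in G2, by 0.47. MCM2 was 9.06 on array 1 of clone 2 and 9.82 and 9.72 on arrays 2 and 3, against 8.90, 8.99 and 8.92 in the empty vector clones, so array 1 lay nearer to the empty vector clones. On array 1 BIRC5, CDC25A and MCM5 were also lower, at 9.78, 8.28 and 9.49. On arrays 2 and 3 they were 10.24 and 10.21, 8.71 and 8.75, and 10.04 and 9.96. FOXM1 was lower on array 2, at 9.61, than on arrays 1 and 3, both at 9.88. PLK1 was alike on the 3 arrays, at 10.90, 10.80 and 10.91, against 10.12, 10.32 and 10.16 in the empty vector clones.

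Wild type cells against the same empty vector clones had 8 rises and 2 falls among the 97, or 10.3% where 3.57% of all genes passed, again without clone 8 only, and from 1 array whose spread is borrowed from the other groups. CCNG2 fell by 1.05 and TP53I11, a p53-induced membrane protein, by 0.59. Rises were 0.79 for BIRC5, 0.70 for CDC25A, 0.70 for TRIAP1, an inhibitor of apoptosome formation, 0.65 for MCM2, 0.57 for MCM4, 0.56 for PLK1, 0.53 for E2F3 and 0.49 for E2F4. Clone 2 against clones 9 and 12 gave 1 rise, MCM2 by 0.59, and 1 fall, the p53 kinase HIPK2 by 0.65, or 2.06% where 2.15% of all genes passed. Clones 9 and 12 against the empty vector clones gave none of the 97 in limma, where 0.982% of all genes passed, with 16 at an unadjusted p under 0.05, where 15.9% of all genes were. The 3 hairpin clones without clone 8 against all controls gave none either, where 0.0% of all genes passed, with 6 at an unadjusted p under 0.05 (6.46% of all genes).

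As a description of likeness, the kept gene closest to each member in its pattern over samples was sought by Pearson correlation. Each value is the highest, or for CDKN1A among the highest, over all kept genes from only 7 or 8 samples. Such a value can be high without any link between the genes, and a link was not tested. Over the 7 clone-level samples without clone 8 these were COG5 (0.991), PCYOX1L (0.984) and FIG4 (0.982) for CDKN1A, TRIM14 (0.988) for MDM2 and PHIP (0.987) for RB1. They were AP1M1 (0.990) for BAX, TMEM102 (0.988) for TP53I3, NPDC1 (0.980) for CDKN1B, CDC42EP5 (0.981) for CDKN2A, EFNA2 (0.983) for CDKN2B and CDCP1 (0.980) for GADD45A. With clone 8, which then sets most of the pattern, CDKN1A was closest to IRS2 (0.993), MTMR9LP (0.992) and CDK5RAP3 (0.991). Also over all 8, CDKN1B was closest to GSN (0.989), CDKN2A to AZU1 (0.997), BAX to ZC3HC1 (0.996), TP53I3 to ME3 (0.991), RB1 to AP1G1 (0.997) and GADD45A to SLC35D2 (0.974). MDM2 kept TRIM14 (0.982) and CDKN2B kept EFNA2 (0.997). Among the members themselves, CDKN1A and BAX ran opposite without clone 8 (r = -0.92 over 7 samples) but together with it (r = 0.61 over 8). MDM2 and RB1 ran together both without it (0.83) and with it (0.83). CDKN1A and its fellow p53 target MDM2 had 0.26 without clone 8 and -0.53 with it.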

How the data were processed

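Per the labels' protocols, Trizol RNA was depleted of ribosomal RNA, copied to biotin-labelled single-stranded cDNA and hybridised, 1 array per sample. The authors deposited 1 log2 value for each of 22011 probes on each of 10 arrays. No source used here states the log base, which the values' range gave, or how background, normalization and probe summary were done. Values were used as deposited. Array medians were 7.34 to 7.41, and 7.62 for clone 8. Precision is limited by how many arrays there are.

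In the platform annotation 14432 probes have a single symbol, 2408 have several and 5171 have none, and 14404 were matched by gene identifier to RefSeq (GRCh38.p14). The highest-mean probe stood for a gene. The 3 arrays of clone 2 were averaged, giving 8 clone-level samples. Genes at or above the 25th percentile of probe means were tested with limma 3.58.1 in R 4.3.3 (lmFit, eBayes). The tests were two-sided, and p-values were adjusted by Benjamini-Hochberg over 11199 features, with 0.05 as the threshold. Hairpin clones against controls had 6 residual degrees of freedom, and the fit of the 4 groups 4. The fits were tested on simulated data whose spread was taken without clone 8. That test therefore does not cover fits that include clone 8. Tables were handled in Python 3.11.15 with pandas 2.3.3. Spread here is that between clones, which may be partly technical.

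The members and lists were chosen with earlier results of these data known, and support nothing by themselves. The genes named are the members, list genes that passed in a comparison or else the list's smallest p against controls (up to 3), LMNB1, and the genes closest in pattern. Alternatives were other scalings, filters, probe rules, priors and weights, fewer controls or constructs, every array as a sample, the replicate number as a block, and each clone or array left out.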

Additional observations from a re-analysis of the deposited data

Results flagged for a closer look

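CDKN2A in clone 8, at 6.52 log2 units, lay apart from the other 3 hairpin clones, at 5.77 to 5.89: its gap to the nearest was 0.843 of the whole range, above the critical value of 0.829 for 4 samples. It was 1 of 18 sets of 4 values examined, and chance marks about 1 in 20. The same array was higher for most genes of low level, with a median shift of 0.57 among those under 7.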

How the results depend on the processing

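No member passed in limma under any setting run, which were, with the reported one, 24 for hairpin clones against controls, 21 each for V2LHS_62673 and clone 2 against the empty vector clones, and 20 each for wild type cells and for clone 2 against V2LHS_62673. The alternatives gave 808 values of single members. The smallest adjusted p of a member was 0.364 to 0.921 for hairpin clones against controls, 0.0701 to 0.956 for V2LHS_62673 and 0.0953 to 1.00 for clone 2 against the empty vector clones. The lowest of these belonged to TP53I3 under array weights. The sign differed from the reported one in 76 of the 808, none of them called. Of these, 13 came from the setting that left out clone 8 and changed nothing else. The settings that left out clone 8 together with another change gave further ones. CDKN1A against controls ran from -0.13 to 0.31 and TP53I3 from -0.45 to -0.17. Counts over all genes did change: against 0 as reported, hairpin clones against controls gave 6 with array weights, 2 without wild type cells, 1 with every array as a replicate, and 18 without clone 8 and wild type cells, a choice made after seeing the data. Array weights gave 337 genes for V2LHS_62673, 471 for clone 2, 479 for wild type cells and 371 for clone 2 against V2LHS_62673, and leaving out clone 8 gave 110, 418, 400 and 241. Quantile normalization with clone 8 then left out, also chosen after seeing the data, gave 26, 281, 203 and 153. Every array as a replicate gave 5, 58, 0 and 15, though it treats repeats of 1 clone as separate. Without the filter, 1 gene passed for wild type cells.

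The replicate numbers 1 to 3, shared by the arrays of clone 2 and the empty vector clones, did not pair them: the deviations of same-numbered arrays from their group means correlated at 0.03, -0.15 and -0.23. With the replicate block, which takes the 3 arrays of 1 clone as 3 replicates, 943 genes and 0 of 8 members passed, with a smallest adjusted p of 0.0953.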
